A study of Mus musculus with 20 samples.

Results

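Mitochondrial fatty acid oxidation and ketogenesis were described in mouse liver through 34 genes, chosen by name from 54325 genes in the tables. They were chosen for their known roles in fatty acid uptake, the carnitine shuttle, mitochondrial beta-oxidation, ketone bodies and the PPARalpha pathway. Earlier results of these data were known when the choice was made. All 34 were found and tested in both tables. Liver mRNA of C57BL/6 mice was sequenced after a regular chow diet (Safe #A04, labelled healthy) or a methionine and choline deficient diet (MCD, Safe #AIN-76, labelled NASH), a dietary model of steatohepatitis. On each diet, mice received either a control IgG or anti-ACBP, a neutralizing antibody to the intracellular acyl-CoA carrier ACBP (gene Dbi), a protein that cells can also release. This gives 4 groups: chow IgG, chow anti-ACBP, MCD IgG and MCD anti-ACBP, all of the C57BL/6 strain, with 5 samples per group in the labels. The labels give no sex, age, duration or batch, and do not say whether samples came from separate animals, so the p-values measure the spread between samples, which may be technical.

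Fatty acids reach the liver cell through membrane and binding proteins, are joined to coenzyme A, and cross the inner mitochondrial membrane as carnitine esters. Inside mitochondria, acyl-CoA dehydrogenases, hydratases, dehydrogenases and thiolases shorten them in repeated rounds, electrons pass through the electron transfer flavoprotein to the respiratory chain, and acetyl-CoA can leave as ketone bodies. The nuclear receptor PPARalpha senses fatty acids and drives many of these genes in the liver, above all in fasting.

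The 2 tables, 1 per diet, hold group means of normalized counts, which are read counts divided by a size factor per library, together with the authors' own comparison of anti-ACBP with IgG. Group means, log2 fold changes (anti-ACBP over IgG) and their standard errors (SE) below are those of the authors' deposited tables, and adjusted p-values under 0.001 were recomputed from them. The tables were scaled separately, so a level set across diets is a description. A gene was called when its adjusted p was under 0.05. The steps that single reads leave in the tables show 5 libraries behind each MCD mean and 4 behind each chow mean, although the labels list 5 per group. Column totals ran from 34621779 to 39398190 normalized counts, and the members' median SE was 0.138 on MCD and 0.105 on chow. The hepatocyte marker Alb, albumin, had means from 1971740 to 3118590 normalized counts, as liver tissue should. The 11 hepatocyte markers in the tables summed to 111540 CPM (counts scaled to a column total of 1000000) with IgG and 125923 with anti-ACBP on MCD, 8 higher and 1 lower, and to 92287 and 106180 CPM on chow, 0 higher and 3 lower. Alb, which was not called on chow, made up most of these sums, at 51081 and 66378 CPM there. The median log2 fold change of the 11 was 0.38 on MCD and -0.18 on chow, where 2 of them were above 0. Summed CPM of 14 macrophage markers were 800 with IgG and 236 with anti-ACBP on MCD, with 10 of 14 lower and 1 higher, against 180 and 177 on chow, where 0 of 13 tested were called. The 7 stellate cell and myofibroblast markers summed to 323 and 131 CPM on MCD, all 7 of them lower, and to 67.9 and 67.5 CPM on chow, where 3 were lower (Col1a1, Col3a1 and Acta2) and 1 higher (Reln). Skeletal muscle markers (Ckm, Acta1, Myh4, Tnnt3) summed to 26.7 CPM in chow IgG and to 0.774 in chow anti-ACBP, where Myh4 was at 0, and none of the 4 was tested there.

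Per kilobase of exon, a scale on which genes can be ranked against each other, Fabp1 stood highest of the 34 in all 4 groups, at 5664 CPM per kilobase in chow IgG. Acaa2 followed at 419 and Slc27a2 at 300 CPM per kilobase, and the lowest were Ucp2 at 2.09, Pdk4 at 1.13 and Oxct1 at 0.762. Oxct1 encodes the enzyme that lets tissues use ketone bodies, a step for which the liver is known to have little capacity. Exon lengths come from an annotation of an older mouse build, so these ranks are approximate.

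**Figure D1:**
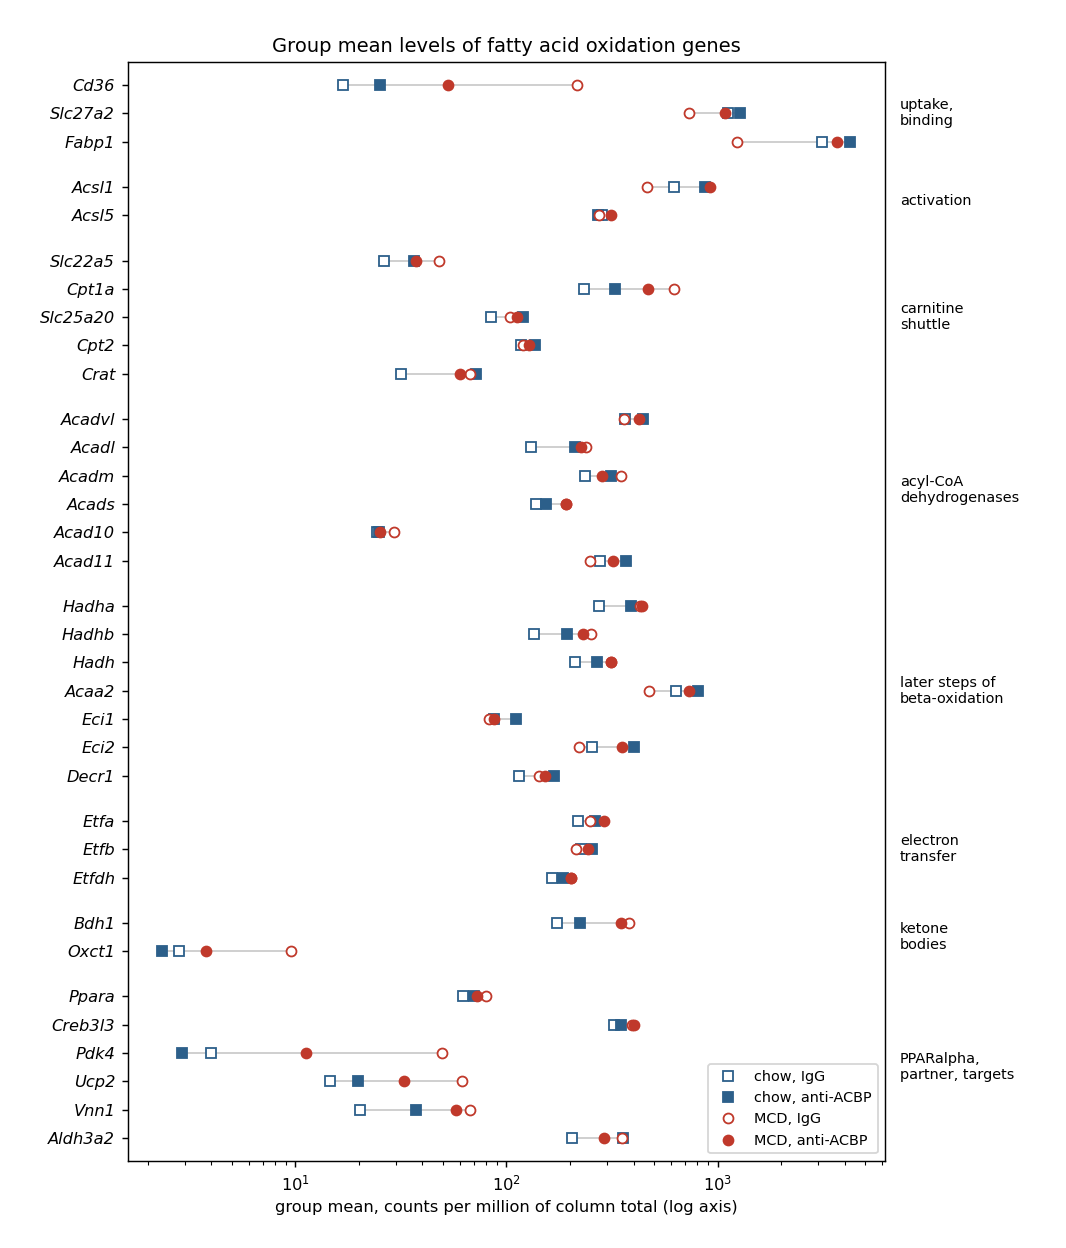
Group mean of each of the 34 genes in counts per column total of 1000000 (CPM, log axis), with 1 point for each of the 4 groups, ordered by role. Fabp1 lies at 1242 CPM in MCD IgG, apart from its other 3 groups, Cd36 and Pdk4 lie highest in MCD IgG, and Oxct1 is lowest, at 2.34 CPM in chow anti-ACBP.

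The first question is what the antibody changed on each diet. On MCD, where most hepatocyte markers were higher and most macrophage and stellate markers lower with the antibody, 12 of the 34 members rose (35.3%) and 4 fell (11.8%), where 30.9% of all 20265 genes tested were called, 14.7% higher and 16.2% lower. Among the 4921 genes with a mean of at least 1000 normalized counts, a level that 33 of the 34 members reach, 42.1% were called, 29.6% higher and 12.5% lower, so the members' shares are near those of other well-expressed genes. The part of the cell markers in these shares was not tested. On chow, 14 members rose (41.2%) and 0 fell, where 12.0% of 14618 genes were called, 5.58% higher and 6.46% lower. Of the 4191 genes at that level on chow, which 29 members reach, 19.8% were called, 9.23% higher and 10.6% lower. The median log2 fold change of the members was 0.18 on MCD and 0.25 on chow, beside 0.02 and 0.00 over all genes tested and 0.10 and 0.01 over those at a mean of at least 1000. Relative to column totals, which moves every log2 fold change by -0.19 on MCD and by 0.14 on chow, 6 members rose and 6 fell on MCD (33.9% of all genes were called, 6.9% higher and 27.0% lower), and 23 rose on chow (21.5%, with 17.8% higher and 3.65% lower). The 9 members that this scaling adds on chow are Cd36, Crat, Acadvl, Acad11, Acaa2, Eci1, Etfa, Etfb and Etfdh. The chow calls use a normal reference for the Wald statistic. With a t reference on 6 residual degrees of freedom none of the 14 was called and their adjusted p ran from 0.125 to 0.26. No gene of 14618 was called then (0.0%), although 2238 genes, all 14 among them, had an unadjusted p under 0.05. The same reference on MCD, with 8 degrees of freedom, kept 9 members higher and 2 lower, without Acsl5, Hadha, Hadh, Pdk4 and Ucp2 (19.1% of all genes were called, 8.36% higher and 10.7% lower).

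**Figure D2:**
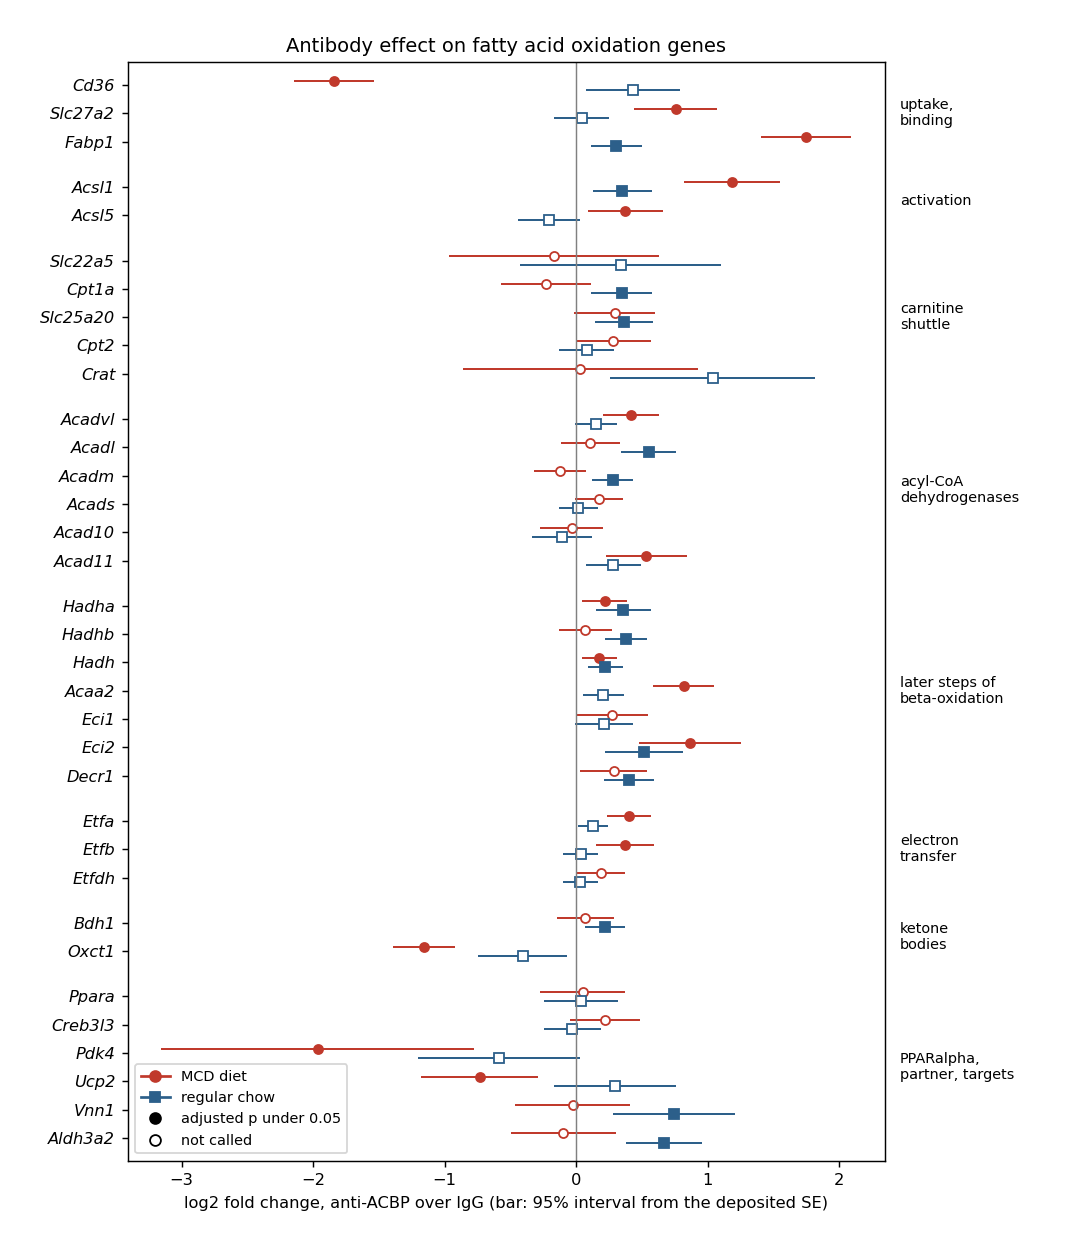
Log2 fold change, anti-ACBP over IgG, of each of the 34 genes on MCD and on chow, with bars for 95% confidence intervals and filled points for genes called at an adjusted p under 0.05. Cd36, Oxct1, Pdk4 and Ucp2 lie below 0 on MCD, Fabp1 and Acsl1 lie farthest above it, and on chow all 14 called genes lie above 0.

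Of the 3 members for uptake and binding, Fabp1 and Slc27a2 rose on MCD and Cd36 fell. Fabp1, the liver fatty acid binding protein of the cytosol, averaged 42988 normalized counts with IgG and 144507 with anti-ACBP on MCD, and 120904 and 149548 on chow. The MCD IgG group alone stood low, and the other 3 groups lay within a narrow range. The rise was 3.36-fold on MCD (log2 1.75 ± 0.172, adjusted p = 3e-22) and 1.24-fold on chow (0.31 ± 0.0939, adjusted p = 0.0144). Its antibody effect was smaller on chow by 1.44 ± 0.196 on the log2 scale (adjusted p of the difference 1.97e-11).

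Promoter sequence is shown for Fabp1 and Cd36, the uptake genes with the largest and opposite changes on MCD. Both windows come from RefSeq on GRCm38.p6, read 5′ to 3′ on the gene's strand, and span 250 bases before to 50 after the annotated start. Fabp1 lies at chr6:71199629-71199928 on the plus strand and Cd36 at chr5:17835847-17836146 on the minus strand. Capitals mark matches on either strand to AGGTCA, the nuclear receptor half-site, and to AGGNCANAGGNCA, 2 half-sites with 1 base between them, the arrangement that PPARalpha with RXR and also HNF4A are known to bind.
Fabp1: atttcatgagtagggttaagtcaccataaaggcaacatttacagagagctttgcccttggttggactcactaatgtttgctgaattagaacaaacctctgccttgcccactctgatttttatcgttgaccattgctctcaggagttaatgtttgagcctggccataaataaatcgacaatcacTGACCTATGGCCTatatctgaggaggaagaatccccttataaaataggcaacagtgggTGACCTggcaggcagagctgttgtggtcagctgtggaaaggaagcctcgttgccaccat
Cd36: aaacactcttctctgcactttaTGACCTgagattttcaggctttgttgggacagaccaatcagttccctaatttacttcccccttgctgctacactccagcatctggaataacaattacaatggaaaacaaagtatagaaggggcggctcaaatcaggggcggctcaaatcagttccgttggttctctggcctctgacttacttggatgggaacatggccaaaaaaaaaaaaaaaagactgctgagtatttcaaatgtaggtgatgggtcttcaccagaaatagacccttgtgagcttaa
The longer motif lies at bases -67 to -55 of Fabp1, on the opposite strand, as TGACCTATGGCCT, and 1 AGGTCA match overlaps it. Of 30 members with a window in RefSeq's table, Fabp1 alone had the longer motif, which 125 of 32851 windows hold (0.381%). AGGTCA was found in 7 members, Fabp1, Cd36, Slc27a2, Cpt1a, Acadvl, Acadm and Creb3l3, and in 16.3% of all windows. These letters describe the windows and say nothing of binding in these livers.

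Cd36, a membrane receptor that takes up long-chain fatty acids and is also made by macrophages and endothelial cells, moved the other way on MCD. It averaged 7445 normalized counts with IgG and 2078 with anti-ACBP on MCD, against 652 and 881 in the chow groups. The MCD IgG group stood highest, and MCD anti-ACBP lay between it and the chow groups. The drop on MCD was 3.58-fold (log2 -1.84 ± 0.151, 95% interval -2.14 to -1.55, adjusted p = 9.5e-32), and the chow value of 0.43 ± 0.178 did not pass the test (adjusted p = 0.0959), although relative to column totals it did (adjusted p = 0.0107). The antibody effect differed between diets by 2.28 ± 0.234 (adjusted p = 1.23e-19), the largest difference among the 34 members. The macrophage markers fell on MCD beside it, from 800 to 236 summed CPM, with 10 of 14 lower. The largest parts of that sum with IgG were Lyz2 (225 CPM, 39.3 with anti-ACBP) and Gpnmb (191 and 7.02). Clec4f, Vsig4 and Mertk were not called, and Timd4 rose. The sinusoidal endothelial markers summed to 214 CPM with IgG and 195 with anti-ACBP. In these bulk libraries fewer cells with the falling markers and less Cd36 RNA per cell cannot be told apart.

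Slc27a2 encodes a very long-chain acyl-CoA synthetase and fatty acid transporter. Its mean rose from 25272 to 42767 normalized counts on MCD (0.76 ± 0.158, adjusted p = 1.57e-05) and was 43403 and 44723 on chow (0.04 ± 0.103, adjusted p = 0.85). As for Fabp1, MCD IgG was the lowest of the 4 groups, and the effect differed between diets by -0.72 ± 0.188 (adjusted p = 0.00155).

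Both members that activate long-chain fatty acids rose on MCD, and Acsl1 also on chow. Acsl1, the main long-chain acyl-CoA synthetase of the liver, averaged 16018 with IgG and 36477 with anti-ACBP on MCD, a 2.28-fold rise (1.19 ± 0.182, adjusted p = 1.74e-09). On chow it went from 24001 to 30649 normalized counts (0.35 ± 0.11, adjusted p = 0.0168). MCD IgG was lowest here too, and the effect on chow was smaller by 0.83 ± 0.213 (adjusted p of the difference 0.00103). Acsl5, a second synthetase, went from 9505 to 12316 on MCD (0.37 ± 0.142, adjusted p = 0.0307), a call that is lost relative to column totals. On chow its means were 10969 and 9515 (-0.21 ± 0.116, adjusted p = 0.274), and the effects differed by -0.58 ± 0.183 (adjusted p = 0.0107).

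The carnitine shuttle had no member called on MCD and 2 of 5 higher on chow. Of well-expressed genes 42.1% were called on MCD and 9.23% rose on chow. Cpt1a, the outer-membrane transferase that is rate-limiting for entry into mitochondria, averaged 21648 with IgG and 18440 with anti-ACBP on MCD (-0.23 ± 0.171, adjusted p = 0.329), although relative to column totals it was called lower. On chow its means were 9002 and 11444 (0.35 ± 0.114, adjusted p = 0.0259), so both MCD groups lay above both chow groups. The effects differed by 0.58 ± 0.205 (adjusted p = 0.0257). Slc25a20, the carnitine-acylcarnitine translocase of the inner membrane, had means of 3588 and 4397 on MCD (0.29 ± 0.152, adjusted p = 0.136) and of 3254 and 4191 on chow (0.37 ± 0.109, adjusted p = 0.0115). The difference between these effects was 0.07 ± 0.187 (adjusted p = 0.835), so the call on chow alone does not separate the diets.

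The other 3 shuttle genes were called on neither diet, except Crat, which relative to column totals was called higher on chow (adjusted p = 0.0188). Crat, which exchanges short acyl groups between carnitine and coenzyme A, had means of 2322 and 2372 on MCD and of 1225 and 2516 on chow. Its chow value was the highest of any member there, 1.04 ± 0.394, but with the widest error there too and an adjusted p of 0.0638. Cpt2, the inner-membrane transferase, had log2 fold changes of 0.28 ± 0.141 on MCD and 0.08 ± 0.103 on chow. Slc22a5, the plasma membrane carnitine transporter OCTN2, had -0.17 ± 0.404 and 0.34 ± 0.386, errors too wide to place its direction.

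Of 6 acyl-CoA dehydrogenases, 2 rose on MCD and a different pair on chow, where 29.6% and 9.23% of well-expressed genes rose. The split depends on the scaling: relative to column totals 4 rose on chow, Acadvl and Acad11 among them. On that scale none rose on MCD, where Acadm fell. These enzymes carry out the first step of each round, each on its own range of chain lengths. On MCD, Acadvl, for very long chains, rose from 12498 to 16684 normalized counts (0.42 ± 0.104, adjusted p = 0.000414), and Acad11, for long chains, from 8659 to 12533 (0.53 ± 0.153, adjusted p = 0.00276). Both calls are lost relative to column totals, and neither effect passed the test of a difference between diets (adjusted p = 0.132 and 0.353). On chow, Acadvl had means of 14001 and 15563 (0.15 ± 0.0789, adjusted p = 0.219) and Acad11 of 10669 and 12980 (0.28 ± 0.103, adjusted p = 0.0504).

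On chow the 2 dehydrogenases that rose were Acadl, for long chains, and Acadm, for medium chains. Acadl had means of 5072 in chow IgG and 7439 in chow anti-ACBP, a 1.47-fold rise (0.55 ± 0.104, adjusted p = 7.25e-06), and of 8270 and 8917 on MCD (0.11 ± 0.11, adjusted p = 0.507). Chow IgG was the low group. Acadm had means of 9067 and 11001 on chow (0.28 ± 0.0747, adjusted p = 0.00369) and of 12125 and 11152 on MCD (-0.12 ± 0.0981, adjusted p = 0.384). Both effects differed between diets, by 0.44 ± 0.152 for Acadl (adjusted p = 0.0195) and by 0.40 ± 0.123 for Acadm (adjusted p = 0.00843). Acads, for short chains, went from 6647 to 7517 on MCD and from 5347 to 5415 on chow, and Acad10, a less studied relative, stood between 871 and 1019 in the 4 groups, neither of them called.

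Among the 7 genes of the later steps, 4 rose on MCD and 5 on chow, and 3 of them on both diets, where 29.6% and 9.23% of well-expressed genes rose. With column totals as the scale the counts were 2 and 7. Hadha and Hadhb encode the alpha and beta subunits of the trifunctional protein, which carries out the hydratase, dehydrogenase and thiolase steps on long chains. Hadha rose from 14800 to 17230 normalized counts on MCD (0.22 ± 0.0839, adjusted p = 0.0321) and from 10624 to 13633 on chow (0.36 ± 0.102, adjusted p = 0.0071). Hadhb had means of 8662 and 9097 on MCD (0.07 ± 0.0986, adjusted p = 0.645) and of 5211 and 6785 on chow (0.38 ± 0.0784, adjusted p = 5.98e-05). The subunits were thus both called on chow, at nearly equal log2 fold changes, and Hadha alone on MCD, where its call is lost relative to column totals and Hadhb turns to -0.12. Neither effect differed between diets at the threshold (adjusted p = 0.489 and 0.0571). Relative to column totals both differences were called, and with median centring that of Hadhb.

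The Hadha promoter window is shown because it is shared: the genes run in opposite directions from starts 273 bases apart in RefSeq, and their windows have 228 bases in common. Hadha lies at chr5:30154931-30155230 of GRCm38.p6 on the minus strand. The window has no capitals, since it held neither of the motifs.
Hadha: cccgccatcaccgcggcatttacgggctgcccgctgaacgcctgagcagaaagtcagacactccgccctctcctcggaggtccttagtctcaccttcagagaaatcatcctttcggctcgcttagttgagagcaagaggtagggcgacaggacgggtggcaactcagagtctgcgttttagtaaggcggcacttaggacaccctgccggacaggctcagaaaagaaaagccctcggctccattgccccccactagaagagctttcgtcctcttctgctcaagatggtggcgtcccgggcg
Hadh, the dehydrogenase for medium and short chains, rose from 10869 to 12295 on MCD (0.18 ± 0.0627, adjusted p = 0.0181) and from 8114 to 9473 on chow (0.22 ± 0.0642, adjusted p = 0.00789), and turned to -0.01 on MCD relative to column totals.

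Acaa2, the thiolase that ends each round on medium chains, rose 1.76-fold on MCD, from 16381 to 28901 normalized counts (0.82 ± 0.114, adjusted p = 1.74e-11). On chow it had means of 24537 and 28304 (0.21 ± 0.0752, adjusted p = 0.0505), and its effect differed between diets by -0.61 ± 0.136 (adjusted p = 0.000116). Its MCD IgG group lay below the other 3, the order seen for Fabp1, Slc27a2 and Acsl1. Eci2, an isomerase that moves double bonds of unsaturated fatty acids in mitochondria and peroxisomes, rose 1.83-fold on MCD, from 7625 to 13918 (0.87 ± 0.193, adjusted p = 6.44e-05). It also rose 1.43-fold on chow, from 9837 to 14049 (0.51 ± 0.147, adjusted p = 0.00747), and the antibody groups of both diets were close in level.

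Decr1, the reductase for polyunsaturated fatty acids, rose on chow from 4445 to 5864 normalized counts (0.40 ± 0.0928, adjusted p = 0.000543). On MCD its means were 4942 and 6023 (0.29 ± 0.125, adjusted p = 0.0676), and its difference between diets did not pass the test (adjusted p = 0.654). Relative to column totals that difference was called. Eci1, the mitochondrial isomerase, had 0.27 ± 0.135 on MCD and 0.21 ± 0.109 on chow, called on neither.

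Of the 3 genes of electron transfer, 2 rose on MCD and 0 on chow, where 29.6% and 9.23% of well-expressed genes rose. Relative to column totals 1 rose on MCD and all 3 on chow. Etfa and Etfb, the subunits of the electron transfer flavoprotein, were the pair called on MCD. Etfa went from 8653 to 11427 normalized counts (0.40 ± 0.0824, adjusted p = 1.27e-05) and Etfb from 7415 to 9607 (0.37 ± 0.108, adjusted p = 0.00307), the latter call being lost relative to column totals. On chow Etfa had means of 8438 and 9216 (0.13 ± 0.0537, adjusted p = 0.108) and Etfb of 8725 and 8942 (0.04 ± 0.0652, adjusted p = 0.801). Both effects were smaller on chow, by 0.27 ± 0.0984 (adjusted p = 0.0279) and 0.34 ± 0.127 (adjusted p = 0.0358), but these calls are lost with median centring and with the t reference, and relative to column totals the sign for Etfa turns, to 0.05. Etfdh, the oxidoreductase that passes these electrons to ubiquinone, had 0.19 ± 0.0908 on MCD (adjusted p = 0.103) and 0.03 ± 0.0646 on chow (adjusted p = 0.812).

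The ketone body genes Bdh1 and Oxct1 behaved differently. Bdh1, which interconverts acetoacetate and beta-hydroxybutyrate, had means of 13156 and 13813 on MCD (0.07 ± 0.107, adjusted p = 0.676) and rose from 6702 to 7809 on chow (0.22 ± 0.0755, adjusted p = 0.034). Both MCD groups stood above both chow groups. Oxct1, the transferase of ketone body use, fell 2.23-fold on MCD, from 331 to 148 normalized counts (-1.16 ± 0.115, adjusted p = 8.84e-22). On chow its means were 109 and 82.1 (-0.41 ± 0.168, adjusted p = 0.0991), and the effects differed by 0.75 ± 0.204 (adjusted p = 0.00236). Beside its chow value stand the muscle markers, 26.7 CPM in chow IgG and 0.774 in chow anti-ACBP, and beside its drop on MCD the macrophage and stellate markers. Their part in either value was not tested.

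The genes for PPARalpha and its partner were called on neither diet. Ppara had means of 2772 and 2868 on MCD (0.05 ± 0.163, adjusted p = 0.86) and of 2392 and 2457 on chow (0.04 ± 0.141, adjusted p = 0.906). Creb3l3, a liver transcription factor that acts with PPARalpha in fasting, had 0.22 ± 0.132 on MCD and -0.03 ± 0.107 on chow. Message levels do not give receptor activity. Of the 4 members grouped here as PPARalpha targets, Pdk4 and Ucp2 fell on MCD and Vnn1 and Aldh3a2 rose on chow. PPARalpha also drives many members described above under other roles, so these 4 do not stand for its targets as a whole.

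Pdk4, a kinase that shuts off pyruvate dehydrogenase and so favours fatty acid use, averaged 1723 with IgG and 442 with anti-ACBP on MCD, against 153 and 102 in the chow groups. The drop on MCD was 3.9-fold (-1.96 ± 0.604, adjusted p = 0.0056), with the widest error of any member there. The chow value was -0.59 ± 0.312 (adjusted p = 0.236), beside the same muscle markers as for Oxct1, and the effects did not differ at the threshold (adjusted p = 0.132). Relative to column totals this difference was called. Ucp2, a mitochondrial carrier that is also expressed in macrophages, fell 1.66-fold on MCD, from 2139 to 1287 (-0.73 ± 0.222, adjusted p = 0.00486). It stood at 565 and 694 on chow (0.30 ± 0.233, adjusted p = 0.47), a difference of 1.03 ± 0.322 (adjusted p = 0.00935). With the t reference the MCD calls of both genes are lost. The part of the macrophage markers in their drop was not tested.

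Vnn1, a pantetheinase and a PPARalpha target in liver, went from 779 to 1307 normalized counts on chow, 1.68-fold (0.75 ± 0.232, adjusted p = 0.0164), and had 2317 and 2274 on MCD (-0.03 ± 0.22, adjusted p = 0.947). Aldh3a2, a fatty aldehyde dehydrogenase, went from 7877 to 12514 on chow, 1.59-fold (0.67 ± 0.144, adjusted p = 0.000139), and had 12158 and 11380 on MCD (-0.10 ± 0.2, adjusted p = 0.771). For both genes chow IgG was the lowest group, and the other 3 stood above it. The difference between diets was called for Aldh3a2 (0.76 ± 0.246, adjusted p = 0.0126) and not for Vnn1 (0.77 ± 0.319, adjusted p = 0.0623). For Vnn1 it was called relative to column totals and with median centring.

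The diets use separate libraries, so their antibody effects could be tested against each other. The effect differed for 14 of 34 members (41.2%), 7 of them higher on chow and 7 lower, beside 23.2% of 14607 genes and 30.9% of the 4111 at a mean of at least 1000 in both tables. Higher on chow were Cd36, Cpt1a, Acadl, Acadm, Oxct1, Ucp2 and Aldh3a2 (20.6%, beside 10.6% of all genes and 6.79% of the well-expressed genes). Lower on chow were Fabp1, Slc27a2, Acsl1, Acsl5, Acaa2, Etfa and Etfb (20.6%, beside 12.6% and 24.1%). Cd36, Oxct1 and Ucp2 had chow means under 1000 normalized counts, so the well-expressed genes are not a like set for them. Relative to column totals the split was 14 higher and 2 lower (37.2% of all genes were called), so the direction of this balance depends on the scaling. All 7 of the first group kept their call there, and of the second only Fabp1 and Acsl1. Column totals added Hadha, Hadhb, Hadh, Decr1, Bdh1, Pdk4 and Vnn1 as higher on chow, and median centring added Hadhb and Vnn1. With a t reference on 14 degrees of freedom the calls of Cpt1a, Acadl, Aldh3a2, Etfa and Etfb were lost.

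Calls of a rise on both diets were made for 5 members, Fabp1, Acsl1, Hadha, Hadh and Eci2 (14.7%, where 3.47% of genes tested in both were called in 1 direction and 1.88% higher). They are 41.7% of the members that rose on MCD, near the 41.2% of all 34 members that rose on chow. They are 35.7% of those that rose on chow, near the 35.3% of all members that rose on MCD. The overlap is thus near the members' own shares. Over all genes it was 9.63% and 33.7% of the genes that rose on MCD and on chow. Median centring leaves 3 of the 5 members (Fabp1, Acsl1 and Eci2), and the t reference 0. Column totals give the same 3 with Acaa2 and Etfa in place of Hadha and Hadh. Between the 2 sets of fold changes Pearson's r over the 34 members was 0.26 and Spearman's rho -0.03, a description across genes, which share libraries within a diet.

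**Figure D3:**
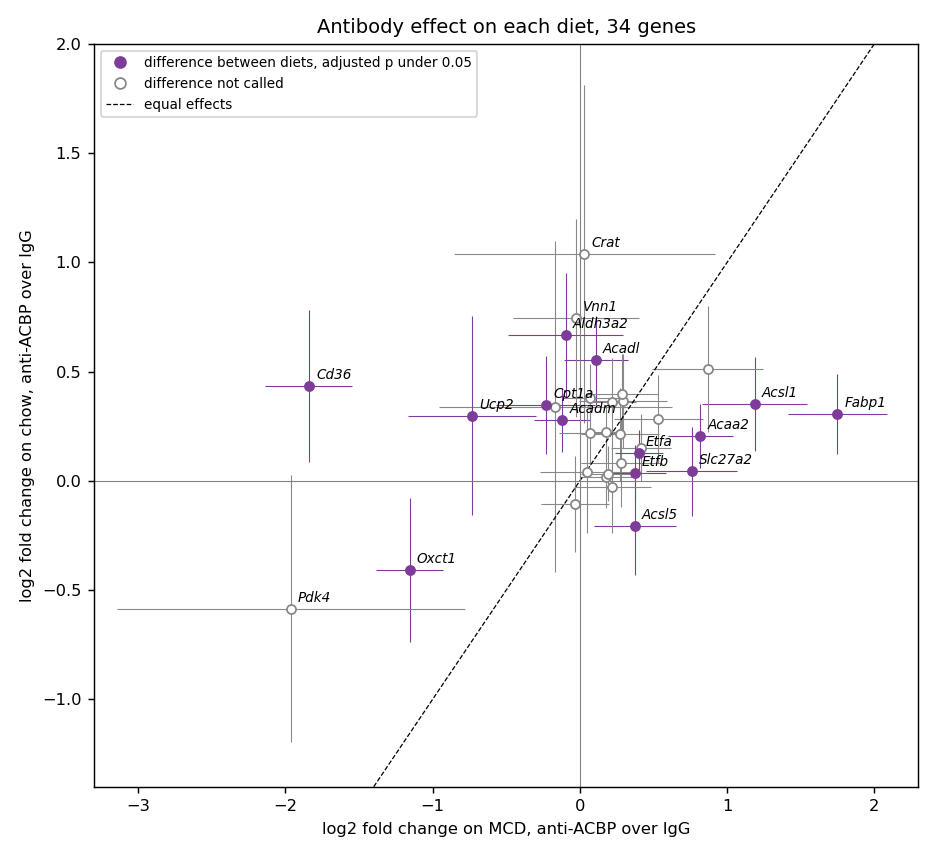
Log2 fold change of the antibody on chow (vertical) against that on MCD (horizontal) for the 34 genes, with 95% intervals, a dashed line of equal effects and filled points for the 14 genes whose effects differed between diets. Cd36, Oxct1, Pdk4 and Ucp2 lie at the left, Fabp1 and Acsl1 at the right, and 29 of the 34 points are above 0 on chow.

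The levels on MCD and chow were set side by side without a test, because the tables were scaled separately. The log2 ratio of CPM was centred on its median over all genes at 5 CPM or more. Under IgG, 13 of 34 members differed by more than 1.5-fold (38.2%, beside 21.9% of the genes at 5 CPM or more, 11.4% higher and 10.6% lower). Higher on MCD were Cd36 (9.69-fold), Pdk4 (9.54-fold), Ucp2, Oxct1, Vnn1, Cpt1a, Bdh1 and Crat, and lower were Fabp1 (3.32-fold), Slc27a2, Acsl1, Acaa2 and Eci2. Under anti-ACBP 3 members did so, Cd36 (1.92-fold), Pdk4 (3.52-fold) and Ucp2 (8.82%, beside 5.97%, with 3.78% higher and 2.19% lower), all higher on MCD. Without the centring they were 6, with Bdh1, Oxct1 and Vnn1 added, and centred on hepatocyte markers 2, without Ucp2. Without the centring the counts under IgG were 13 higher and 2 lower, and centred on hepatocyte markers 15 higher and 1 lower. Which genes pass 1.5-fold thus depends on the scaling, as does the direction of some genes with small ratios. All 8 genes counted as higher under IgG passed on both other scales. Of the lower ones only Fabp1 passed on both, although the others stayed lower on MCD. Pdk4 and Oxct1 were counted although both lay under 5 CPM on chow. Pdk4 stood there at 3.97 CPM with IgG and 2.91 with anti-ACBP, and Oxct1 at 2.82 and 2.34. Their ratios are thus less certain, and the members' shares are not fully matched to those of the other genes.

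**Figure D4:**
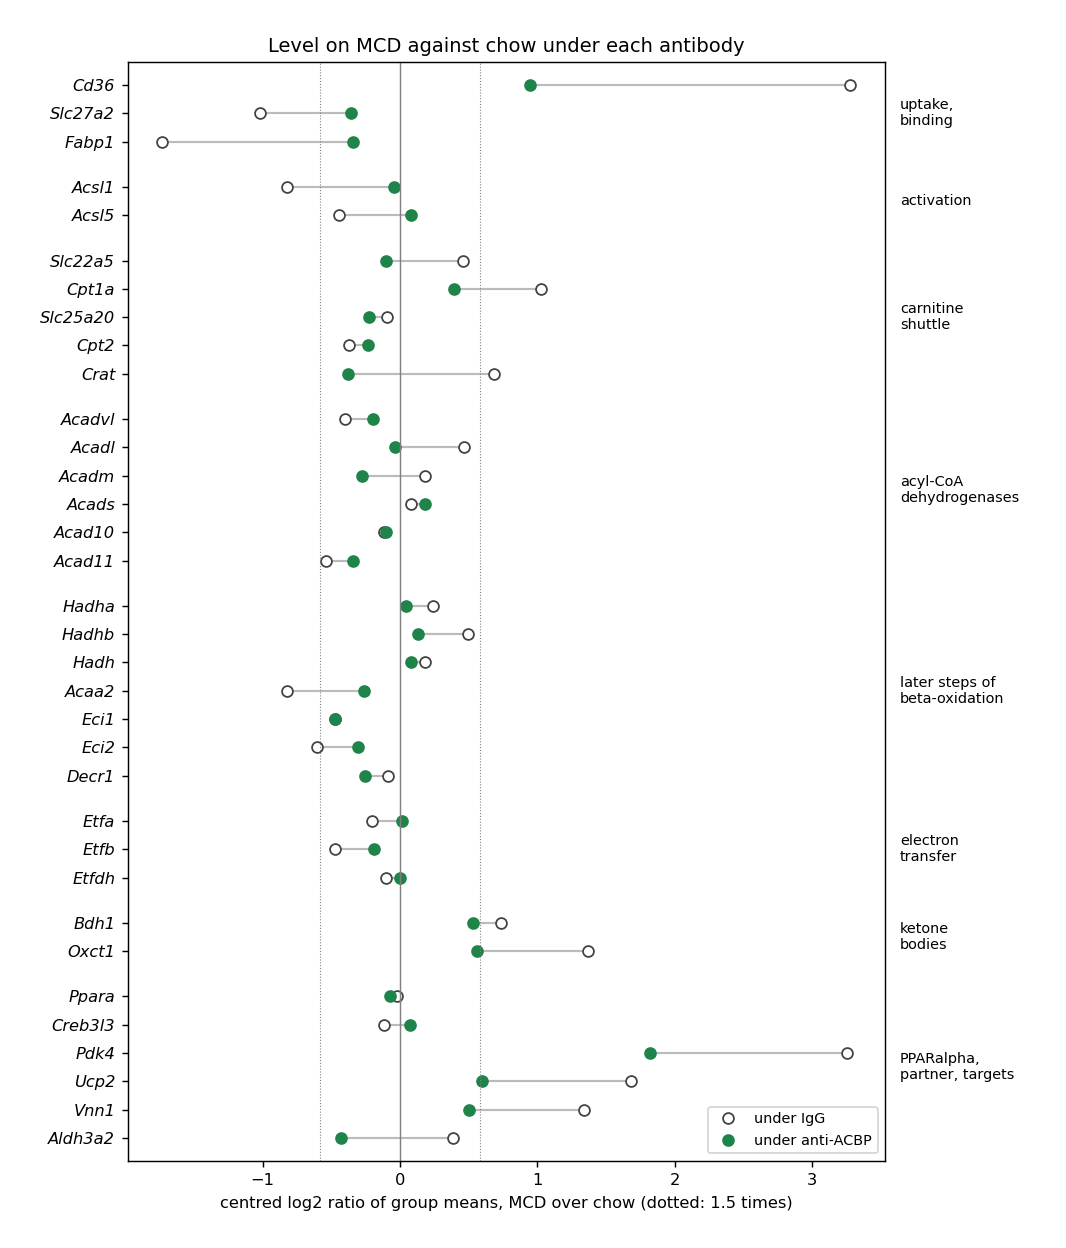
Centred log2 ratio of MCD over chow levels for each of the 34 genes under IgG and under anti-ACBP, with lines at a 1.5-fold ratio. Cd36 and Pdk4 lie above 3 under IgG, Fabp1 lies lowest, and most points are nearer 0 under anti-ACBP.

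The ratio was nearer 0 under anti-ACBP than under IgG for 28 of the 34 members (82.4%). The same held for 72.6% of the 8857 genes at 5 CPM or more in all 4 groups, so the members share it with most well-measured genes. The median absolute log2 ratio went from 0.47 to 0.24 over the members and from 0.283 to 0.15 over those genes. Fabp1 went from -1.73 to -0.34 and Cd36 from 3.28 to 0.94.

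Neighbouring pathways were counted from lists written with earlier results of these data known. Beside them, 14.7% of all genes rose and 16.2% fell on MCD, and 5.58% rose and 6.46% fell on chow. Among well-expressed genes, 29.6% rose and 12.5% fell on MCD, and 9.23% rose and 10.6% fell on chow. Of 7 other ketone body genes, 4 rose and 0 fell on MCD (median 0.35), and 3 rose and 0 fell on chow (median 0.10). With column totals as the scale, 2 of the 7 rose and 1 fell on MCD. On MCD the thiolase Acat1 rose by 0.48 ± 0.0808 (adjusted p = 3.59e-08). Slc16a7, a monocarboxylate carrier, rose on chow from 1195 to 2350 (0.98 ± 0.154, adjusted p = 3.42e-08) and had -0.28 ± 0.146 on MCD.

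Among 22 other PPARalpha regulators and targets, 6 rose and 2 fell on MCD (median -0.12), and 8 rose and 0 fell on chow (median 0.34). The shares that rose were 14.7% and 5.58% over all genes, and 29.6% and 9.23% over well-expressed genes. On chow the lowest adjusted p-values were those of the acyl-CoA thioesterases Acot3, from 167 to 2506 normalized counts (3.91 ± 0.748, adjusted p = 1.17e-05), and Acot4, from 1471 to 4266 (1.54 ± 0.35, adjusted p = 0.000395). They belong to a cluster of related genes with Acot1 and Acot2, whose reads can be split between them. The single values, also those of Acot2 below, are thus uncertain. On MCD, Cidec, a lipid droplet protein, fell from 2436 to 266 (-3.19 ± 0.563, adjusted p = 2.18e-07) and the deacetylase Sirt1 rose by 0.42 ± 0.0935 (adjusted p = 6.01e-05). With column totals as the scale, 4 of the 22 rose and 7 fell on MCD.

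The list of 18 other genes of mitochondrial acyl-CoA oxidation had 9 higher and 3 lower on MCD (median 0.27) and 2 higher on chow (median -0.11). Over all genes 14.7% and 5.58% rose, and over well-expressed genes 29.6% and 9.23%. Acot9, a mitochondrial thioesterase, fell on MCD by 1.07 ± 0.156 (adjusted p = 1.9e-10) and Hibch, of valine breakdown, rose by 0.33 ± 0.0674 (adjusted p = 1.13e-05). On chow Acot2 rose from 70.5 to 218 (1.63 ± 0.329, adjusted p = 4.17e-05) and Acot13 by 0.23 ± 0.0818 (adjusted p = 0.0437), while on MCD Acot2 fell by 1.53 (adjusted p = 0.0219). Uptake, activation and transport had 7 higher and 3 lower of 19 on MCD and 1 higher of 18 on chow, beside the same shares. There Slc27a5, a bile acid and fatty acyl-CoA ligase, rose on MCD from 8726 to 21623 (1.31 ± 0.152, adjusted p = 3.7e-16) and Acsm5, a medium-chain synthetase, from 1976 to 4560 (1.21 ± 0.111, adjusted p = 3.79e-25). On chow Mlycd, which removes malonyl-CoA, rose by 0.22 ± 0.0791 (adjusted p = 0.0488), and Slc27a5 had a value of -0.20 ± 0.0734 (adjusted p = 0.0603). Relative to column totals the MCD counts of these lists were 3 higher and 3 lower of 18, and 5 higher and 6 lower of 19.

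Peroxisomal beta-oxidation, the separate route for very long and branched chains, had 9 of 19 tested genes higher and 2 lower on MCD, and 4 higher and 4 lower on chow (7 and 3 on each diet relative to column totals). Well-expressed genes had 29.6% higher and 12.5% lower on MCD, and 9.23% and 10.6% on chow. All genes had 14.7% and 16.2% on MCD, and 5.58% and 6.46% on chow. Nudt7, a peroxisomal coenzyme A hydrolase, rose on MCD from 5030 to 18367 (1.87 ± 0.21, adjusted p = 3.93e-17) and fell on chow by 0.84 (adjusted p = 0.00187). Amacr, a racemase of branched chains, rose on MCD by 0.64 ± 0.0683 (adjusted p = 7.01e-19). On chow the transporter Abcd2 rose from 139 to 564 (2.02 ± 0.294, adjusted p = 1.39e-09) and the oxidase Acox2 fell from 6769 to 4575 (adjusted p = 1.28e-05).

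The respiratory chain and the tricarboxylic acid cycle, which take up the products of beta-oxidation, had most of their calls on MCD. Of 26 nuclear-encoded respiratory chain genes, 20 rose and 0 fell on MCD (median 0.28, where 29.6% of well-expressed genes rose and their median was 0.10), among them the complex I subunit Ndufa9 (adjusted p = 1.89e-08) and the complex III subunit Uqcrc2 (adjusted p = 7.88e-07). On chow 1 rose and 0 fell (median 0.02), namely Cyc1, cytochrome c1 (0.18 ± 0.0539, adjusted p = 0.0102), and Ndufs8 of complex I had -0.23 ± 0.0835 (adjusted p = 0.0551). The difference between diets was called for 13 of the 26, all lower on chow. Relative to column totals 4 of the 26 rose on MCD and 9 on chow, so which diet has more calls turns with the scaling. Of 17 cycle genes 8 rose and 1, Idh3a, fell on MCD (-0.44, adjusted p = 0.000298), led by the ligase subunits Suclg2 (0.39 ± 0.0744, adjusted p = 1.65e-06) and Sucla2 (0.36 ± 0.0744, adjusted p = 1.66e-05). On chow 2 rose, among them the same Idh3a (0.53 ± 0.0949, adjusted p = 2.45e-06), and relative to column totals 1 rose and 4 fell on MCD and 10 rose on chow. Without that scaling, 29.6% of well-expressed genes rose on MCD and 9.23% on chow, and 14.7% and 5.58% of all genes.

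**Figure D5:**
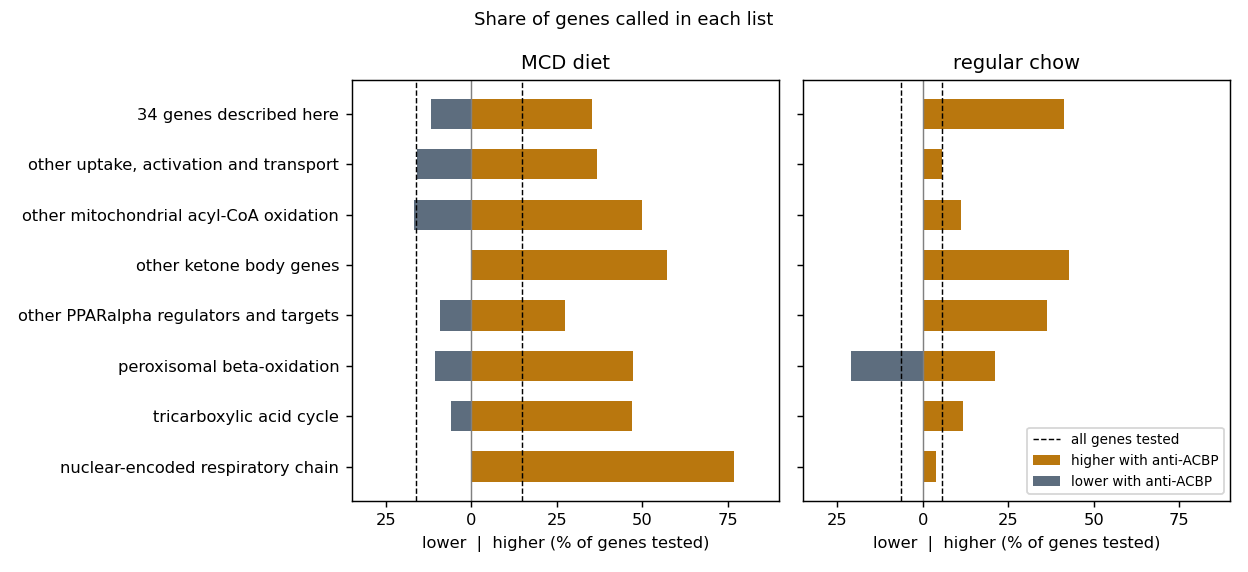
Percent of the tested genes of each list called higher (right of 0) or lower (left of 0) with the antibody on MCD and on chow, for the 34 members and the 7 neighbouring lists, with dashed lines for all genes tested. The respiratory chain has the highest share on MCD (20 of 26), and on chow the bars of the members (41.2%) and of the other ketone body genes (3 of 7) lie farthest past the line at 5.58%.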

How the data were processed

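Liver mRNA of 20 mouse samples was sequenced, 5 in each of 4 groups taken from the diet and treatment labels. Extraction used a column kit and libraries were strand-specific, per the labels' protocols; the strand setting of counting is not given in the sources used here. HISAT2 2.2.1, HTSeq 0.13.5, DESeq2 and the build mm39 are named in the submitters' processing notes. Per the file headers, the authors deposited 2 DESeq2 tables, 1 per diet, each with 54325 genes. The signal columns the authors deposited are means, over all libraries and per group, of read counts after division by size factors. The authors' fold change is on a log2 scale with its SE and is limited to 5 in size. Deposited p-value columns give the Wald test, unadjusted and adjusted after Benjamini-Hochberg, to 6 decimals.

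The tables were used as group means, so no count model was fitted, no replicate could be left out and only the authors' comparisons stand. Adjusted p-values under 0.001 were recomputed from the deposited fold changes and SEs, which changed 0 calls among those used. Genes with an adjusted p numbered 20265 on MCD and 14618 on chow, with a lowest mean of 2.49 and 12.85 normalized counts. The difference between diets was the difference of both log2 fold changes over the root of their summed squared SEs, with a two-sided normal p, adjusted over 14607 genes. CPM is a group mean scaled to a column total of 1000000. Ratios between diets were centred on the median over genes at 5 CPM or more in both groups (0.394 under IgG over 8956 genes, 0.128 under anti-ACBP over 9195). Size factors read from single-read steps ran from 0.838 to 1.08 on MCD (10 libraries) and from 0.905 to 1.11 on chow (8 libraries) and do not tell which samples the chow means hold.

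All 34 members were named, and of each neighbouring list the 2 genes with the lowest adjusted p in each antibody comparison; some of the genes this rule names are not reported here. The members, lists and tests were chosen with earlier results of these data known. Alternatives were scaling by column totals, centring on the median, a t reference, a minimum of 5 CPM before adjustment, an adjusted p of 0.01 and a log2 change of at least 0.5. The background of genes at a mean of at least 1000 was chosen after seeing the data. Promoter windows came from RefSeq (GRCm38.p6) by symbol for 30 of 34 members, all but Vnn1, Acaa2, Crat and Decr1, and exon lengths from GENCODE for GRCm38; no coordinate of the authors' build was used. Computations used Python 3.11.15, NumPy 2.4.6, pandas 2.3.3, SciPy 1.17.1 and Matplotlib 3.10.9.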

Additional observations from a re-analysis of the deposited data

Results flagged for a closer look

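The antibody effect differed between chow and MCD for 14 members by a test of the difference itself. On the log2 scale, chow minus MCD, the differences were 2.28 for Cd36, 1.03 for Ucp2, 0.76 for Aldh3a2, 0.75 for Oxct1, 0.58 for Cpt1a, 0.44 for Acadl and 0.40 for Acadm. They were -1.44 for Fabp1, -0.83 for Acsl1, -0.72 for Slc27a2, -0.61 for Acaa2, -0.58 for Acsl5, -0.34 for Etfb and -0.27 for Etfa. Cd36 and Ucp2, which macrophages also express, are in the first group, and summed macrophage markers fell from 800 to 236 CPM on MCD and stood at 180 and 177 CPM on chow. The part of these markers in the differences was not tested.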

How the results depend on the processing

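The members called numbered 16 on MCD (12 higher, 4 lower), 14 on chow (all higher) and 14 for the difference (7 higher, 7 lower). Relative to column totals, 6 rose on MCD, 23 rose on chow, and the difference had 14 higher and 2 lower. With a t reference, 2 fell on MCD, the chow counts were 0 in all and 0 higher (17 members and 2238 genes had an unadjusted p under 0.05), and the difference had 9 (15.3% of all genes), of them 4 higher (6.88%). At an adjusted p of 0.01 chow had 8, all higher (6.89% of all genes, 3.02% higher), and the difference 8 (14.7%), of them 4 higher (6.54%) and 4 lower (8.13%). With a log2 change of at least 0.5, MCD had 10 (20.2%), of them 6 higher (7.55%), and chow 4, all higher (6.34%, with 2.65% higher). Centring on the median, and adjusting over genes at 5 CPM or more, kept all these counts within 1.5 times. The median ratio of MCD to chow levels was -0.05 under IgG, 0.34 without centring and 0.39 centred on hepatocyte markers, and under anti-ACBP -0.06, 0.070 and -0.16.

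Relative to column totals the sign turned on MCD for Crat (-0.16), Acadl (-0.078), Acads (-0.00916), Hadhb (-0.12), Hadh (-0.00865), Bdh1 (-0.12) and Ppara (-0.14), and on chow for Acad10 (0.031) and Creb3l3 (0.11). The difference turned for Cpt2 (0.12), Acadvl (0.060), Acads (0.16), Acad10 (0.25), Acad11 (0.073), Eci1 (0.26), Etfa (0.050), Etfdh (0.17), Ppara (0.31) and Creb3l3 (0.073). Centring on the median turned Crat (-0.031) and Ppara (-0.012) on MCD and Ppara in the difference (0.045). The shift is the same for every gene of a table by construction, so a gene of a table turned where its value had the opposite sign and was smaller in size than that shift. No paired analysis was possible because only group means were used, and no library could be left out for the same reason. Depth does not limit most members, at means above 1000 normalized counts; Oxct1 and Pdk4 on chow have the lowest means, down to 82.1 and 102.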
